A study of Mus musculus with 2 samples.

Results

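The genes of classical major histocompatibility complex (MHC) class I presentation and of peptide loading were examined in mouse colon epithelial cells. They comprised 7 genes, H2-K1, H2-D1, B2m, Tap1, Tap2, Tapbp and Erap1, of 8721 named genes in the table. Every probe set whose platform symbol was 1 of these genes was taken, which gave 19 of 14049 probe sets with a single symbol. A further probe set was annotated to both H2-K1 and H2-D1 and was kept apart. The cells came from 7-week-old mice of the inbred strain C57BL/6. Cells of the control sample had been incubated with phosphate-buffered saline (PBS), and those of the other sample with MIF. The labels do not spell MIF out, and it is read here as the cytokine macrophage migration inhibitory factor. RNA of each incubation was read on 1 Affymetrix array. The labels give neither the MIF dose, the incubation time, the number of animals nor how the epithelial cells were obtained. With a single array for each incubation no spread between samples could be measured, so all differences are given as values without a test.

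MHC class I molecules display peptides from the inside of a cell to CD8 T cells and natural killer cells. The heavy chain, encoded by H2-K1 or H2-D1 among the classical genes, pairs with the light chain beta-2 microglobulin, encoded by B2m. Peptides cut by the proteasome are pumped into the endoplasmic reticulum (ER) by the transporter made of TAP1 and TAP2, trimmed there by ERAP1, and loaded with the help of tapasin, encoded by Tapbp. Most nucleated cells carry class I molecules, intestinal epithelial cells among them, and interferon gamma raises the genes of the pathway together.

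Signals are the authors' processed intensities on a linear scale, and each difference is the log2 signal after MIF minus that after PBS. A probe set was assessed if its signal on either array exceeded a floor of 232, the 40th percentile of signals. The median signal over the table was 337 for PBS and 346 for MIF, which differ by 0.04 in log2. All 9 epithelial markers lay above the floor on both arrays, with summed signals of 76902 after PBS and 73413 after MIF. Of these, 8 were lower on the MIF array, with a median difference of -0.08, where 53.3% of all assessed genes were lower. The lowest was the keratin gene Krt19 (-0.23), and the single higher one was the E-cadherin gene Cdh1 (0.21). All 9 markers fell among the 1386 brightest genes above the floor on both arrays. Of those genes 63.5% were lower, with a median difference of -0.04. None of the 4 pan-leukocyte markers lay above the floor, with the common leukocyte antigen gene Ptprc at 173 and 137. Of 6 T and NK cell markers in the table, 2 were assessed, the granzyme genes Gzma and Gzmb, and their summed signal was 1354 after PBS and 685 after MIF. Of 5 fibroblast markers, 2 were assessed, Dcn and Col3a1, with summed signals of 461 and 1233. After PBS, Col3a1 lay under the floor at 227 and Dcn close to it at 235, so the Col3a1 difference is a bound. Cells of these types can carry class I molecules too. The part of these cells and of the epithelial marker differences in the results on the class I genes was not tested. In RNA of whole cell preparations, fewer cells of a type and less RNA per cell cannot be told apart.

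The promoters of these genes are shown because a set of short elements upstream of class I genes is known to govern them together. The windows run from 250 bases before to 50 bases after an annotated transcription start and are RefSeq sequence of the build GRCm38.p6, written 5′ to 3′ on the strand of the gene. A window was found for 6 of the 7 genes, and Tap2 had none. H2-K1, H2-D1 and B2m are shown for the class I molecule itself, Tap1 for the peptide transporter and Erap1 as the trimming enzyme of the ER. Capitals mark the motif matches described after the sequences.
H2-K1, chr17:34000298-34000597 (minus strand): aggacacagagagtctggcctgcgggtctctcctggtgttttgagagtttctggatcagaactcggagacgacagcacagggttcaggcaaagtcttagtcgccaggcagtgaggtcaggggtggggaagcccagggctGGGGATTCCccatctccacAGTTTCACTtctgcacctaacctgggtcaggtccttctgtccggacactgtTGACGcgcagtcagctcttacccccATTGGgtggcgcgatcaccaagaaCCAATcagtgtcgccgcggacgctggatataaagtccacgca
H2-D1, chr17:35262844-35263143 (plus strand): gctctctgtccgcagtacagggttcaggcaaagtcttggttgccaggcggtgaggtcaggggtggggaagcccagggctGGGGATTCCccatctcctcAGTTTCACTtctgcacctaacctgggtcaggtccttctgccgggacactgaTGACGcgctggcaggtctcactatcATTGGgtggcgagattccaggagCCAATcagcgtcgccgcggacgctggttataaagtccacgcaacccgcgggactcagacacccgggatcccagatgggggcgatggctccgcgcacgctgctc
B2m, chr2:122147437-122147736 (plus strand): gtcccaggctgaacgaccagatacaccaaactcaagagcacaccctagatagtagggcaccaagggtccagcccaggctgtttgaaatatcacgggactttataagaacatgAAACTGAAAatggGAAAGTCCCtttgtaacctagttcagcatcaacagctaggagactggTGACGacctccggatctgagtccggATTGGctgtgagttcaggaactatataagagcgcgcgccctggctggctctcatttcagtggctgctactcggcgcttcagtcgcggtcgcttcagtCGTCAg
Tap1, chr17:34187306-34187605 (plus strand): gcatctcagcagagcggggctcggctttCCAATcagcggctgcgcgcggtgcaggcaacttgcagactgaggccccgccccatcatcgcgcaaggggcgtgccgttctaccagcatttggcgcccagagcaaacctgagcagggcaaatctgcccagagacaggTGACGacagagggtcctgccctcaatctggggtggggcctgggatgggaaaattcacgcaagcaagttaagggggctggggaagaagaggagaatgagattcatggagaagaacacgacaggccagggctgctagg
Erap1, chr13:74639603-74639902 (plus strand): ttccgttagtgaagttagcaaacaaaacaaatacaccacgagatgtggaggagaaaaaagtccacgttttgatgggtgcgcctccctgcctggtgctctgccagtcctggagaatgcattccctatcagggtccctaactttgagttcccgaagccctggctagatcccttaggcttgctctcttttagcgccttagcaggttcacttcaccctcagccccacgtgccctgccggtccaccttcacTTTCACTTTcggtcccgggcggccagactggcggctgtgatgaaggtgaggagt

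The motifs were searched on both strands, and their letters were chosen with the class I promoters in view. The letters of both ISRE forms and of the kappa B form were revised after longer or looser forms had been searched in these windows, so which members match depends on that choice and nothing is supported by it. They were the interferon-stimulated response element (ISRE) as AAANNGAAA, the form of it at class I heavy chain genes as ANNGAAACT, a kappa B form bound by NF-kB proteins as GGGNNTTNC, the cyclic AMP response core TGACG, and CCAAT, bound by the factor NF-Y. The class I ISRE form occurred in H2-K1 and H2-D1, where it read AGTTTCACT on the gene's strand, against 4.94% of all 32851 windows. In the printed H2-K1 window it began 92 bases before the annotated transcription start, and in H2-D1 152 bases before. H2-K1 has a second annotated start, whose window is not printed, and the form began 106 bases before that start. AAANNGAAA occurred in B2m, 138 bases before the start, and in Erap1, where it spanned the start, against 10.6% of windows. The kappa B form occurred in H2-K1, H2-D1 and B2m and in 15.2% of all windows. In both heavy chain genes it read GGGGATTCC and lay just before the ISRE form. No match overlapped another in these windows. TGACG occurred in H2-K1, H2-D1, B2m and Tap1 and in 20.8% of windows, and CCAAT in all members with a window except Erap1 and in 37.4% of windows. The windows of H2-K1 and H2-D1 had 211 of 239 aligned bases in common, or 88.3%. These matches describe letters in a sequence and not binding.

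**Figure D1:**
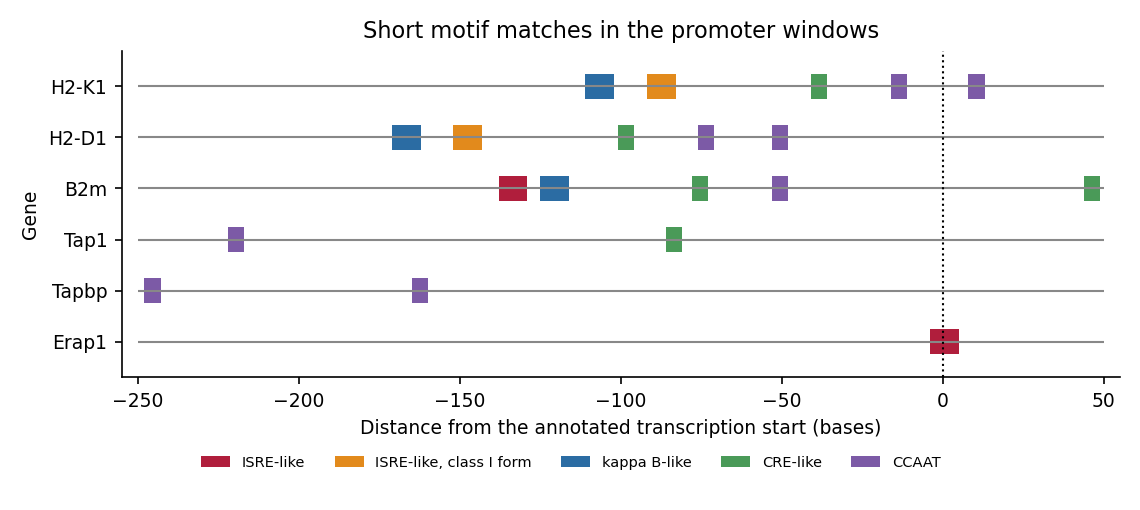
Motif matches on either strand (coloured blocks) in the promoter windows of the 6 genes that had one, against distance in bases from the annotated transcription start (dotted line). H2-K1 and H2-D1 hold the kappa B form, the class I ISRE form, TGACG and CCAAT in the same order, B2m holds AAANNGAAA before the kappa B form, and Tap1, Tapbp and Erap1 hold neither the kappa B form nor the class I ISRE form.

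The peptide transporter genes Tap1 and Tap2 were 1.23-fold lower on the MIF array, and H2-K1 was 1.14-fold lower. The other genes differed less, and under another scaling of the arrays the sign turned for Erap1 and for 1 probe set each of H2-D1 and B2m, the one that represents the gene, whereas the other assessed probe sets of H2-D1 and B2m stayed lower. Of the 7 genes, each represented by its brightest probe set, 6 were lower and 1 was higher, where 53.3% of all 5837 assessed genes were lower. Tap1 and Tap2 alone among them were 1.2-fold or more lower, as were 6.29% of assessed genes, and no member was 1.2-fold or more higher, as were 6.82%. At 1.1-fold, 4 members were lower, as were 20.2% of assessed genes. The median log2 difference was -0.15 over the 7 genes and -0.01 over all assessed genes. All 7 genes passed the floor on both arrays, so no member was left out of these counts. The count of lower genes was 4 after quantile normalization, 5 after a loess fit of the difference on mean signal was subtracted and 7 after median centring. The share of all assessed genes that were lower was 54.4%, 53% and 61.8% under these settings in turn, so the 4 of 7 after quantile normalization is near the background.

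Of the 19 probe sets with a single member symbol, 14 lay above the floor on both arrays and 5 under it on both. Among those 14, 12 were lower on the MIF array, as were 50% of all assessed probe sets, and 4 were 1.2-fold or more lower, as were 6.69%. Probe sets of a gene read the same RNA on the same array and are not replicates of an incubation. Over 1800 genes with several probe sets above the floor, the SD between the log2 differences of a gene's probe sets was 0.15. This is a spread between probe sets on the same arrays and holds no error between arrays or animals.

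**Figure D2:**
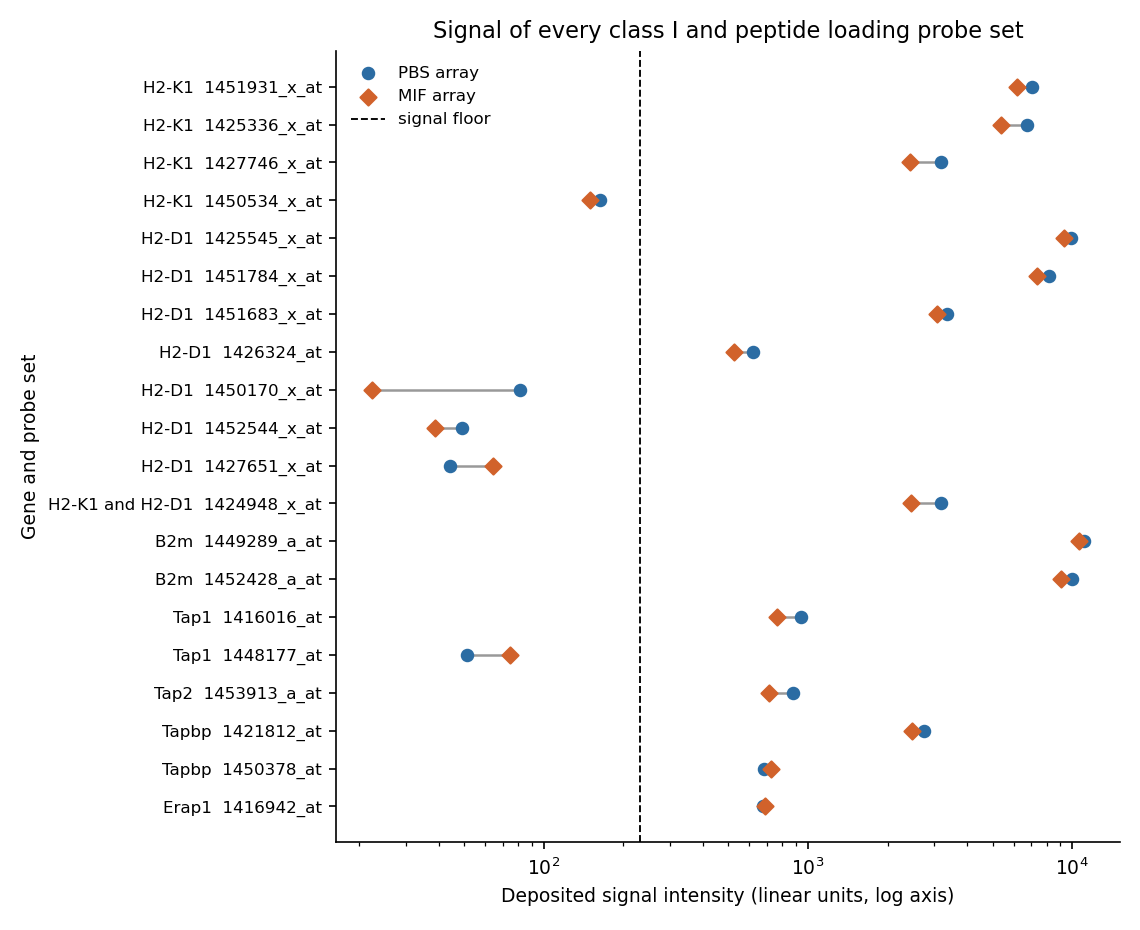
Deposited signal (log axis) of each of the 20 probe sets after PBS (circles) and after MIF (diamonds), with the floor of 232 as a dashed line. Of the 15 probe sets right of the floor, the probe set shared by H2-K1 and H2-D1 included, 13 have the lower signal on the MIF array, and the exceptions are a Tapbp probe set and that of Erap1.

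The heavy chain genes were read by several probe sets each. C57BL/6 mice carry the b haplotype of the MHC, in which H2-K1 encodes the Kb molecule and H2-D1 the Db molecule. For H2-K1, probe set 1451931_x_at had a signal of 7045 after PBS and 6203 after MIF. Probe set 1425336_x_at had 6729 and 5384, and probe set 1427746_x_at had 3184 and 2431. All 3 were lower on the MIF array, by log2 differences of -0.18, -0.32 and -0.39, or 1.14-fold, 1.25-fold and 1.31-fold. The probe set used to represent the gene, 1451931_x_at, had the smallest of these differences. The remaining probe set, at 163 and 150, lay under the floor. The 4 probe sets all end in _x_at, the suffix Affymetrix gives to probe sets that can cross-hybridise with other transcripts, so no reading of H2-K1 is free of that possibility.

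H2-D1 was read by 7 probe sets, of which 4 lay above the floor. Probe set 1425545_x_at had a signal of 9914 after PBS and 9350 after MIF, a difference of -0.08, which turned to 0.02 after quantile normalization. Probe set 1451784_x_at had 8164 and 7377 (-0.15), and probe set 1451683_x_at had 3362 and 3092 (-0.12). All 3 were lower on the MIF array by amounts no larger than about the SD between probe sets. Probe set 1426324_at, the single H2-D1 probe set without the cross-hybridising suffix, had 617 and 527, a difference of -0.23 or 1.17-fold lower. The other 3 had signals from 22.4 to 81.1, under the floor, where differences were not assessed. The H2-K1 differences ran from -0.39 to -0.18 and the H2-D1 differences from -0.23 to -0.08, so the ranges of the genes overlapped. The probe set annotated to both genes, 1424948_x_at, had 3176 and 2450, a difference of -0.37, which lay within the range of H2-K1 and outside that of H2-D1. Heavy chain transcripts are close copies of each other, and signal on these probe sets may be divided between genes in a way that the table does not show.

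The light chain gene B2m had nearly equal signals on the arrays. Probe set 1449289_a_at had a signal of 11101 after PBS and 10643 after MIF, a log2 difference of -0.06. It turned to 0.02 both after quantile normalization and after removal of the loess trend. Probe set 1452428_a_at had 10027 and 9072, a difference of -0.14, and stayed lower under those settings at -0.04 and -0.07. Both differences were smaller than the SD between probe sets. Genes above the floor on both arrays were split into 4 nearly equal groups by mean signal, and B2m, H2-D1, H2-K1 and Tapbp all fell in the brightest group of 1386 genes. In that group the median difference was -0.04 and 63.5% of genes were lower. Of its genes, 43.8% had a difference as low as that of B2m or lower, 35.6% as low as H2-D1, 17.6% as low as Tapbp and 11.3% as low as H2-K1.

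Both subunits of the peptide transporter were lower on the MIF array by almost the same amount. Tap1 had a signal of 943 after PBS and 764 after MIF from probe set 1416016_at, a log2 difference of -0.30. Tap2 had 879 and 712 with its single probe set, 1453913_a_at, also a difference of -0.30, and each was 1.23-fold lower. These were the largest differences among the 7 representative probe sets as deposited, though 2 further H2-K1 probe sets were lower still, and 4.27% of assessed genes were as low as Tap1 or lower and 4.3% as low as Tap2. Neither probe set carries the cross-hybridising suffix. Under median centring, quantile normalization and loess removal the differences of both genes ran from -0.34 to -0.31. The other Tap1 probe set, 1448177_at, lay under the floor at 51.4 and 74.4, and with the mean of both probe sets after flooring the Tap1 difference was -0.15.

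Tapasin, which bridges the transporter and the empty heavy chain, was read by 2 probe sets that went opposite ways. Tapbp probe set 1421812_at had a signal of 2752 after PBS and 2478 after MIF, a difference of -0.15. Probe set 1450378_at had 679 and 723, a difference of 0.09. Their mean was -0.03, so no direction can be given for Tapbp beyond that of each probe set. Erap1, the aminopeptidase of the ER that trims peptides to class I length, had 675 after PBS and 686 after MIF. Its difference of 0.02 turned to -0.01 under median centring.

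**Figure D3:**
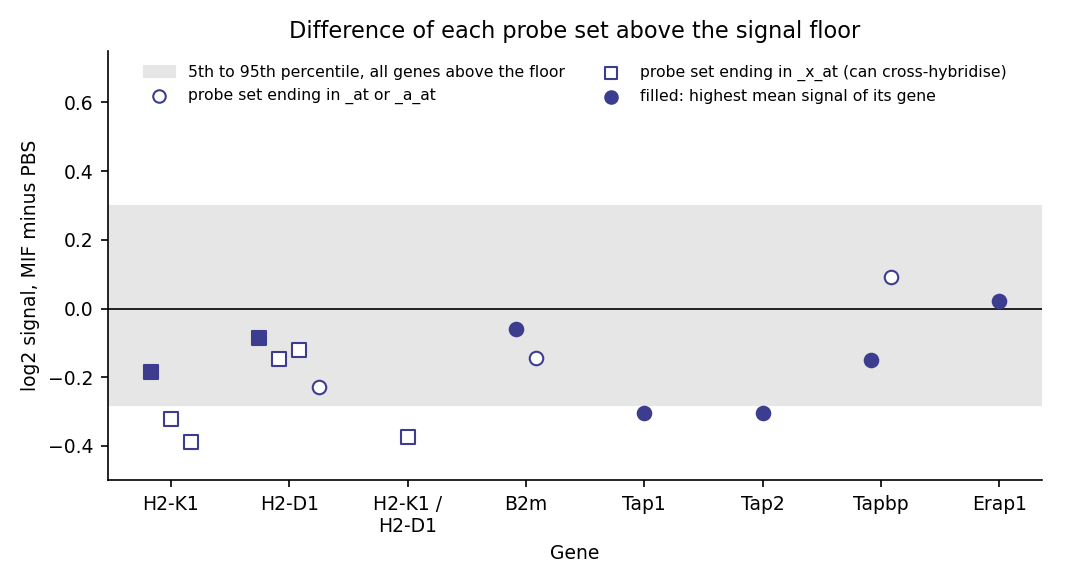
Log2 difference, MIF minus PBS, of each probe set above the floor, by gene, with the range from the 5th to the 95th percentile of all genes above the floor on both arrays in grey (-0.28 to 0.30). Squares are probe sets that can cross-hybridise and filled symbols represent their gene. Tap1, Tap2, 2 of 3 H2-K1 probe sets and the probe set shared with H2-D1 lie below the grey range.

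**Figure D4:**
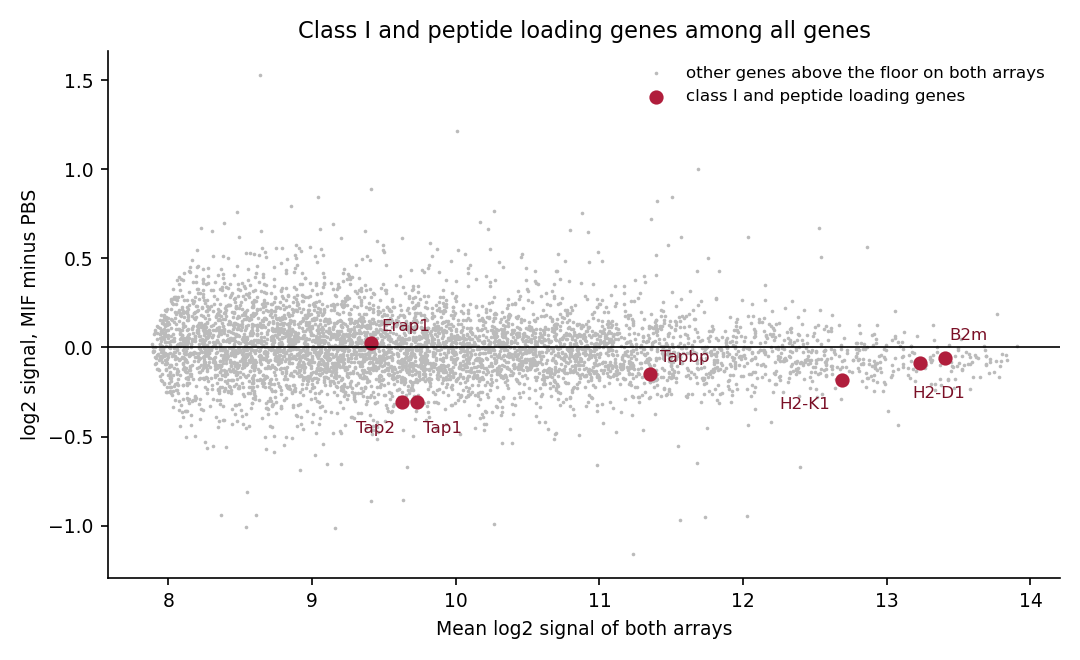
Log2 difference against mean log2 signal for the genes above the floor on both arrays (grey) and the 7 class I and peptide loading genes (red). Tap1 and Tap2 sit together at -0.30 near the lower edge of genes of like signal, whereas B2m and H2-D1 sit at -0.06 and -0.08 within the bulk of the brightest genes.

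Class Ib genes are relatives of the classical heavy chain genes with narrower expression, and they were examined with other class I-like genes. Of 11 such genes in the table, 5 were assessed and 4 of them were lower, beside 53.3% of all assessed genes. The median of the 5 was -0.07, in which H2-Q10 stands at a bound because its MIF signal lay under the floor. H2-T3, which encodes the thymus leukaemia antigen, a ligand of CD8 alpha chains displayed by intestinal epithelium, had 1541 after PBS and 1065 after MIF. This was 1.45-fold lower, and a second H2-T3 probe set had 1166 and 760, or 1.54-fold lower. Fcgrt, the neonatal Fc receptor heavy chain, had 578 and 508 (-0.19), and H2-Q2 had 1872 and 1788 (-0.07). Another 7 probe sets were annotated to several class I genes at once and cannot be given to a single gene. Of these, 6 were assessed and 5 were lower, including that of H2-K1 and H2-D1, beside 50% of all assessed probe sets. A pair of probe sets each annotated to more than 1 gene of the H2-Q group had 556 and 306 and 545 and 297 on the PBS and MIF arrays. They were 1.82-fold and 1.83-fold lower. Of assessed genes, each by its brightest probe set, 0.463% were 1.5-fold or more lower, and no such share was taken over probe sets. Whether the pair read separate transcripts is not known.

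The cutting of peptides before the transporter and their trimming on either side of it were compared by lists of the pathway. All 4 assessed genes of the immunoproteasome and its PA28 activator were lower, 3 of them 1.2-fold or more, with a median of -0.38. They were the catalytic subunit genes Psmb9 (2550 and 1613), Psmb8 (4027 and 2938) and Psmb10 (4289 and 3470) and the activator subunit gene Psme1 (4263 and 3693). Of all assessed genes, 53.3% were lower and 6.29% were 1.2-fold or more lower. Of 8 peptidases that trim or destroy peptides, the member Erap1 of the ER included, 6 were lower, with a median of -0.15. Lap3, a cytosolic leucine aminopeptidase, had 2710 and 2239 (-0.28), and Blmh, bleomycin hydrolase, had 1628 and 1380 (-0.24). Tpp2, a giant cytosolic peptidase, was higher at 559 and 660 (0.24).

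Genes of the ER chaperones that fold and hold class I heavy chains lay on both sides of 0. For chaperones and quality control, 5 of 14 assessed genes were lower, beside 53.3% of all assessed genes. The other 9 were higher, and the list median was 0.06. Tapbpl, a relative of tapasin that edits bound peptides, was the lowest at 654 and 561 (-0.22). Syvn1 and Sel1l, subunits of the ligase complex that removes misfolded proteins from the ER, were higher, at 335 and 413 (0.30) and at 377 and 449 (0.25). The chaperone gene Hspa5 had 7992 and 7462 (-0.10). Calr, encoding the calreticulin of the peptide loading complex, had 8163 and 7205 (-0.18), and Pdia3, the thiol oxidoreductase of that complex, had 5828 and 5552 (-0.07). Of the 9 higher genes, Canx had 5001 and 5184 (0.05), Hsp90b1 4963 and 5349 (0.11) and Uggt1 245 and 258 (0.08). Genes of ER export and surface traffic were spread to both sides, with 8 of 14 lower, near the 53.3% of all assessed genes. The list median was -0.0037 and turned to 0.0055 after quantile normalization and 0.02 after loess removal. In this list Sec24d, a cargo adaptor of export vesicles, was the highest at 531 and 691 (0.38). Arf6, a GTPase of endocytic recycling, was the lowest at 5440 and 4752 (-0.20), and the plasma membrane fusion gene Stx4a had 710 and 629 (-0.18).

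**Figure D5:**
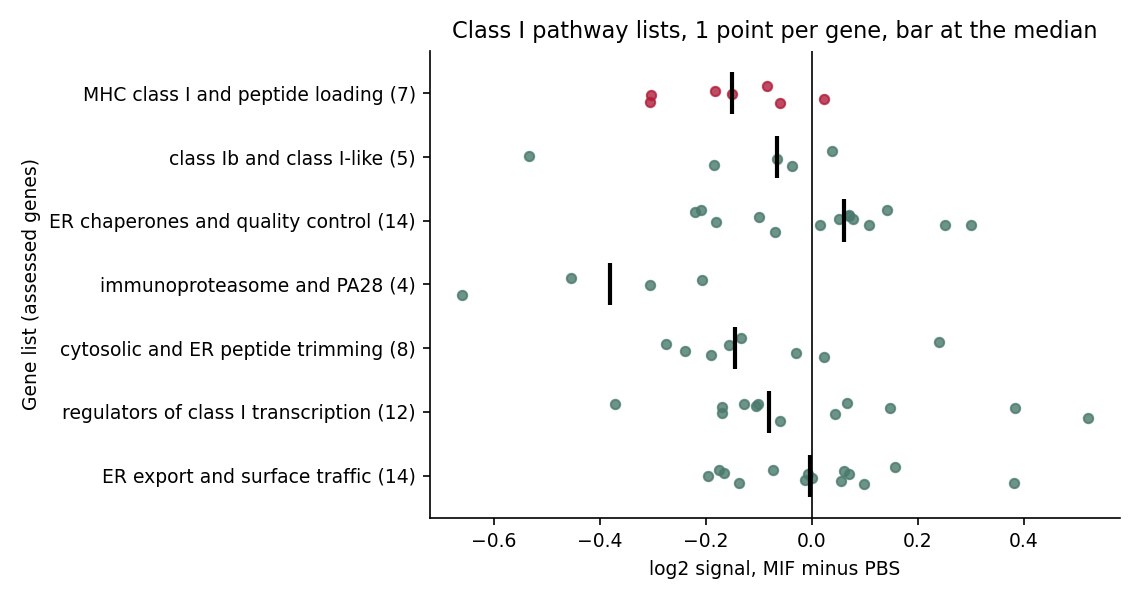
Log2 difference, MIF minus PBS, of each assessed gene (points) in the lists of the class I pathway, with the number of assessed genes in brackets and the list median as a bar. The immunoproteasome list lies wholly left of 0 with a median of -0.38, the 7 class I and peptide loading genes have a median of -0.15, and the ER chaperone list has a median of 0.06.

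Genes listed as regulators of class I transcription, direct or indirect, were mixed. Of 12 assessed genes, 7 were lower, Rfxap at a bound, which is near the share of 53.3% over all assessed genes. The list median was -0.08. Irf8, an interferon regulatory factor, had a signal of 3042 after PBS and 2352 after MIF (-0.37). Irf1, which binds ISRE sequences and is induced by interferon gamma, had 2432 and 2162 (-0.17). Irf2, a factor that binds the same sequences, was higher at 331 and 475 (0.52). Nfya, a subunit of the CCAAT-binding factor, was higher at 238 and 311 (0.38), with a PBS signal close to the floor, while the other subunit genes Nfyb and Nfyc had differences of -0.10 and -0.17. The class II transactivator gene Ciita was under the floor on both arrays, and Nlrc5, the class I transactivator, was not analysed here. None of the 5 receptors of class I in the table, Cd8a among them, was above the floor on either array.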

How the data were processed

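The authors deposited 1 signal intensity per probe set and array, and the linear scale was read from the values. Per the labels' protocols, Trizol was used to extract the RNA, from which biotin-labelled cRNA was prepared for Affymetrix arrays. Probe summarisation, background correction, scaling and the choice of the 15340 probe sets are not stated in the labels. Of the probe sets, 61 were controls. The platform annotation gave 14049 others a single symbol, 490 several and 740 none. Of the single symbols, 14034 were updated by Entrez ID through the GRCm38.p6 gene table.

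Columns were used as deposited. Signals under the 40th percentile were raised to it, and a gene under it on both arrays was not assessed. With 1 array under the floor a difference is a bound. With 1 array per group no test, SD between samples or p-value was possible, and precision is limited by the array number. The step that gives gene differences was tested on simulated data, with planted differences larger than those of the assessed member probe sets. The scalings, lists and motif search were not simulated.

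The members, gene lists, motifs and thresholds were chosen with earlier results of these data known. The rule named every member probe set and, in each pathway list, the 3 genes with the largest differences and the one with the highest signal. Irf1, Nfyb, Nfyc, Calr, Pdia3, Canx, Hsp90b1, Uggt1, Ciita, Nlrc5, Cd8a, H2-Q10, Rfxap and Cd1d1 were named after their values were seen. So were the cell type markers and the probe sets annotated to several genes. Alternatives were median centring, quantile normalization, removal of a loess trend (span 0.3), floors at the 20th and 60th percentile or none, averaged probe sets, no _x_at or _s_at probe sets, and thresholds of 1.1-fold and 1.5-fold. Python 3.11.15, numpy 2.4.6, pandas 2.3.3, statsmodels 0.14.6, Biopython 1.88 and matplotlib 3.10.9 were used.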

Additional observations from a re-analysis of the deposited data

How the results depend on the processing

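The median difference of the 7 genes stayed negative under all 8 processing alternatives, from -0.19 to -0.10. The count of genes 1.2-fold or more lower was 2 as reported, 1 with averaged probe sets, 4 at a threshold of 1.1-fold and 0 at 1.5-fold. The share of all assessed genes was 6.29%, 4.8%, 20.2% and 0.463% in turn. H2-K1, Tap1 and Tap2 were lower under every alternative that gave a value, as was the probe set representing Tapbp, while the other Tapbp probe set was higher under all 3 scalings. H2-K1 had none without _x_at probe sets. H2-D1 was lower in 7 of 8, with a range from -0.23 to 0.02, and B2m in 6 of 8, from -0.10 to 0.02. Erap1 was lower in 1 of 8. Of 55 gene values under these alternatives, 1 moved beyond the probe set SD of 0.15, that of Tap1 with averaged probe sets at -0.15, where its other probe set was at the floor. Of 96 list values 3 moved, all without a floor, where more genes were assessed. No paired analysis was possible because each group has a single array. Signals under the floor cannot show a difference.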

Other observations

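Tap1 and the immunoproteasome gene Psmb9 are annotated head to head, and their promoter windows share 275 of 300 bases. Psmb9 was 1.58-fold lower on the MIF array and Tap1 1.23-fold lower, and the immunoproteasome gene Psmb8 was 1.37-fold lower. Whether the shared bases bear on these differences was not tested. Cd1d1, a class I-like gene that presents lipids, had signals of 100.2 after PBS and 179 after MIF with its brighter probe set and 55.6 and 99.6 with the other. All of these lie under the floor, so no difference was assessed.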
